A study of Mus musculus with 56 samples.

Results

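The genes described here encode 8 cytokines of T cells, *Ifng*, *Tnf*, *Il2*, *Il10*, *Csf1*, *Csf2*, *Lif* and *Il16*. They were taken from the RNA-Seq count table by mouse gene symbol, and the list was chosen with earlier results of these data known. All 8 were found among its 55359 genes, and all 8 passed the filter on low counts that left 19659 genes to test. The cells were OVA:Kb-specific CD8+ T cells from spleen and lymph nodes of C57BL/6 females, called TFGS for fetus/graft-specific T cells, which recognize the OVA antigen shared by graft and fetus. Per the methods, females were bought at 8 to 12 weeks of age, and their age at sorting is not given in the sources used here. Naive mice (3 samples) had neither graft nor pregnancy. Sensitized mice (4 samples) had an allogeneic skin graft from 2W-OVA.BALB/c donors and were taken at day 30 or later. Naive+Pregnant mice carried a semi-allogeneic pregnancy by 2W-OVA.BALB/c males, and their cells were sorted on post-partum days 0 to 3 as N+P C1 (PD1-, 3 samples) and N+P C5 (PD1+CD73+, 3 samples). Sensitized+Pregnant mice had the graft and then the pregnancy, and were sorted as S+P C4 (PD1-, 6 samples), S+P C5 (PD1+CD73+, 6 samples) and S+P C7 (PD1+CD73-, 5 samples). A library was made from 200 cells sorted directly into lysis buffer. The study sorted from 2 independent experiments, and which sample belongs to which is not given in the sources used here.

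Cytokines are secreted proteins by which T cells act on other cells and on themselves. IFN-γ and TNF are the main effector cytokines of CD8 T cells, IL-2 drives T cell growth, and IL-10 restrains antigen-presenting cells and T cells. M-CSF (*Csf1*) and GM-CSF (*Csf2*) act on myeloid cells, LIF is a member of the IL-6 family, and IL-16 is made as a precursor that caspase-3 cleaves. Resting T cells keep most of these mRNAs low, transcribe them after antigen receptor signaling through NFAT, AP-1 and NF-κB factors, and degrade many of them quickly through AU-rich elements in the 3′ UTR.

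The 56 libraries held 6636532 to 32625243 counts. A library that appears with the same counts in Naive and in S+P C4 was left out of both, 2 nearly identical libraries of S+P C7 replicates 1 and 2 were averaged into 1 sample (replicate 1-2), and the technical libraries of each sample were summed, which left 30 samples of 15547934 to 54809406 counts. Levels are given in CPM, a gene's counts as a share of its library, scaled by TMM. A gene was taken as detected with more than 3 counts in a sample, which corresponds to between 0.0539 and 0.298 CPM and covers counting error only. The 6 CD8 T cell markers (*Cd3e*, *Cd3d*, *Cd8a*, *Cd8b1*, *Trac*, *Trbc2*) summed to 5079 to 13629 CPM in all samples, and *Cd4* and *Foxp3* together to at most 4.45 CPM. The samples with the fewest genes with a count were replicate 2 (8002) and replicate 3 (7436) of S+P C4 and replicate 3 (7879) of S+P C7. S+P C7 replicate 3 also had 10044 CPM of *Hba-a1*, 6453 of *Hbb-bs* and 8232 of *Ighm*, genes of erythroid and B cells, with *Cd79a*, *Cd79b* and *Ms4a1* at 0. The same sample had 103 CPM of the NK cell gene *Ncr1* and 225 of *Klrb1c*, beside CD8 T cell markers within the range of the other samples. In bulk samples, fewer cells that express a gene and less of its RNA per cell cannot be told apart.

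The 250 bases upstream of the annotated start of the canonical transcript were read from GRCm39, and matches are given for 7 of the 8 genes. For *Il16* this start lies inside the gene, which on the minus strand begins at base 83395370. Those of *Ifng* are shown because it alone passed the test in a comparison, those of *Lif* because it had 0 counts in Naive and Sensitized TFGS, and those of *Il16* because it was detected in all samples. Each runs 5′ to 3′ on the gene's own strand. Capitals mark matches on either strand to GGAAA (the core of NFAT sites), TGANTCA (AP-1), TTCNNNGAA (STAT), TCACAC (a T-box half-site) and TATAAA (the TATA box).
Ifng, chr10:118276701-118276950, plus strand: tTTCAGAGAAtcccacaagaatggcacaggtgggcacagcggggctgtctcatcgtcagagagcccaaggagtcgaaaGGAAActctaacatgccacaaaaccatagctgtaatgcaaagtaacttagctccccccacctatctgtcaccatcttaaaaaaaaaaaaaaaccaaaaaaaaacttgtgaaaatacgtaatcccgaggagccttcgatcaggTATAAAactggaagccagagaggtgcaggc
Lif, chr11:4207307-4207556, plus strand: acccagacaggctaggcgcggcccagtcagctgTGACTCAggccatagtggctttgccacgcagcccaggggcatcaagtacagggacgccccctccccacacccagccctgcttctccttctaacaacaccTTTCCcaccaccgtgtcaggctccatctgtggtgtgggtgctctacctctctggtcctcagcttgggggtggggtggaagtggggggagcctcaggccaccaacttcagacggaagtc
Il16, chr7:83384732-83384981, minus strand: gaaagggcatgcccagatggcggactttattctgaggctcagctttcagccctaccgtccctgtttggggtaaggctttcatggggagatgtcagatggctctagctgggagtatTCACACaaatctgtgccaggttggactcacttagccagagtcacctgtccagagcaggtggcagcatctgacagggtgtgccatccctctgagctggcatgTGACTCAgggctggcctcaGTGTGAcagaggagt

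Among these 7, a TATAAA match ended 24 or 25 bases before the transcript start in *Ifng* and *Tnf* and 21 bases before it in *Il2*. Of 21627 promoters of protein-coding genes of the same length, 11.95% held this sequence anywhere. *Csf1*, *Csf2*, *Lif* and *Il16* had no such match. GGAAA, present in 58.01% of all promoters, was found, among the same 7, in *Ifng*, *Tnf*, *Il2*, *Csf1*, *Csf2* and *Lif*, with 3 matches each in *Tnf* and *Csf1*, and not in *Il16*. TGANTCA, in 6.187% of all promoters, was found in *Lif* at bases -217 to -211 and in *Il16* at -34 to -28. TTCNNNGAA (7.726% of promoters) matched in *Ifng* and *Csf2*, and TCACAC (11.56%) in *Csf1* and *Il16*. These matches describe the letters and are not measured binding sites.

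The pentamer ATTTA, the unit of AU-rich elements, was counted in the 3′ UTR of each canonical transcript, beside the median of 1.275 per kb over 20757 protein-coding genes. *Csf2* had 9 in 317 bases (28.4 per kb), *Il2* had 7 in 581 bases (12.1 per kb), *Tnf* had 8 in 764 bases (10.5 per kb), *Ifng* had 6 in 631 bases (9.51 per kb) and *Il10* had 6 in 706 bases (8.50 per kb). Of all genes, 1.86% had as many per kb as *Il10*, the lowest of these 5, and 0.0867% as many as *Csf2*. *Lif* (2.20 per kb) and *Csf1* (1.90 per kb) lay nearer the median, and *Il16* had 0 in 1081 bases. The overlapping form ATTTATTTA, found in 6.71% of genes, occurred 5 times in *Csf2*, 2 times in *Tnf* and 1 time in *Il2*.

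*Ifng* and *Il16* were the cytokine mRNAs with the highest levels. Per kb of exon, *Ifng* averaged 65.3 CPM over the 30 samples, *Il16* 26.3, *Tnf* 10.2, *Il10* 4.38, *Il2* 1.88, *Csf2* 1.65, *Csf1* 1.15 and *Lif* 0.231. *Il16* was detected in 30 of 30 samples, *Ifng* in 29, *Tnf* in 27, *Il2* in 21, *Csf1* in 19, *Il10* in 14, *Lif* in 11 and *Csf2* in 5. Naive samples had a median of 3 of the 8 cytokines detected, N+P C1 and Sensitized samples 4, and S+P C4 samples 5.5. The median was 6 for N+P C5, 6.5 for S+P C5 and again 6 for the C7 subset. All 8 were detected in 1 sample, S+P C5 replicate 4.

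**Figure D1:**
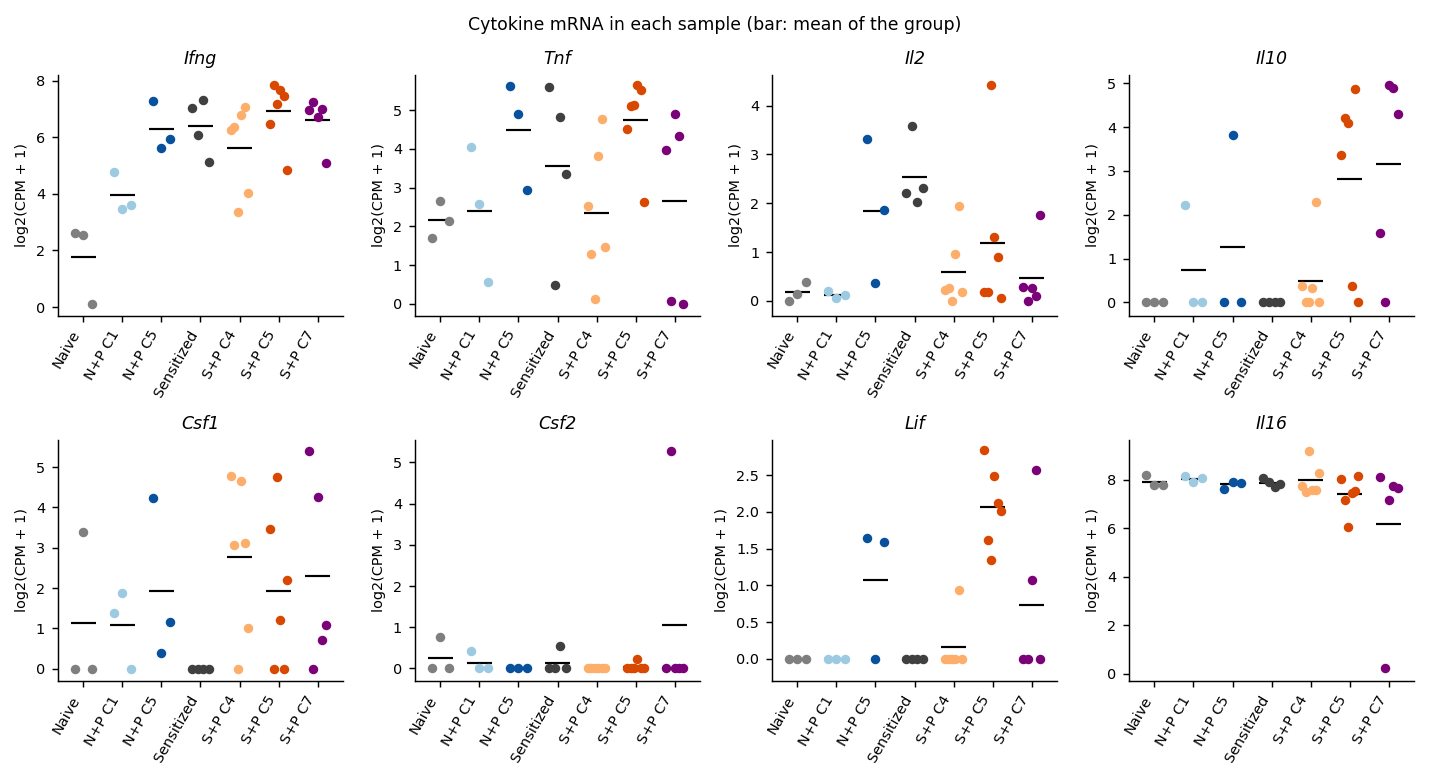
Level of each cytokine mRNA, as log2(CPM + 1), in the 30 samples by group, with 1 point per sample and a bar at the group mean. *Ifng* lies lower in Naive and N+P C1 than in Sensitized and N+P C5, *Il10* and *Lif* are at 0 in every Naive and Sensitized sample, and *Il16* is lowest in S+P C7 replicate 3, which had 4 counts.

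Differences were tested with edgeR's quasi-likelihood test in 1 fit of all 7 groups, and a gene was called at an adjusted p under 0.1 with an absolute log2 fold change above 0.9. Of the 88 tests of 8 cytokines in 11 comparisons, 1 was called, *Ifng* in Sensitized against Naive TFGS, and 23 had an unadjusted p under 0.05. Comparisons against Naive share the 3 Naive samples and those against Sensitized share the 4 Sensitized samples. Between Sensitized and Naive TFGS, 1 of 8 was called beside 0.153% of all genes, and 3 of 8 had an unadjusted p under 0.05 beside 7.85%. N+P C1 against Naive gave 0 calls (0% of all genes) and 2 with an unadjusted p under 0.05 (3.25%). N+P C5 against Naive gave 0 (0.0407%) and 3 (5.34%). Against Sensitized TFGS, 0 cytokines were called in S+P C4, where 0.00509% of all genes were, 0 in the C5 subset (0.0712%) and 0 in the C7 subset (0.0305%). With an unadjusted p under 0.05 there were 3 for C4 (12.7% of all genes), 3 for C5 (13.0%) and 3 for C7 (10.2%), all higher than in Sensitized.

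The direct comparison of S+P C5 with N+P C5 had 0 calls (0%) and 0 cytokines with an unadjusted p under 0.05 (5.9% of all genes). S+P C7 against S+P C5 had 0 (0%) and 1 (12.7%), and N+P C5 against N+P C1 had 0 (0.00509%) and 3 (4.34%). S+P C5 against S+P C4 had 0 (0.0305%) and 0 (13.3%). For the difference between the change with pregnancy in sensitized mice (S+P C5 against Sensitized) and in naive mice (N+P C5 against Naive) there were 0 calls (0.0254%) and 2 with an unadjusted p under 0.05 (6.43%), *Ifng* and *Csf1*. DESeq2 called 3 of the cytokines in Sensitized against Naive, 1 in N+P C1 against Naive, 2 in N+P C5 against Naive, and 2, 3 and 2 in the C4, C5 and C7 subsets of S+P mice against Sensitized. It called 1 in N+P C5 against N+P C1, 2 for the difference of differences, and 0 in the other 3 comparisons. The same tool called 631 to 1106 genes in each of the 11 comparisons, where edgeR called 0 to 30.

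The median log2 fold change of the 8 cytokines was 3.82 in N+P C5 against Naive, where that of all genes was 0, and 3.22 with genes at the floor of 3 counts set to their bound. It was 2.20 in S+P C5 against S+P C4 (1.99 with genes at their bound, and 0.11 over all genes) and 2.09 in N+P C5 against N+P C1 (0 over all genes). In S+P C7 against Sensitized it was 3.08, and 1.58 with genes at their bound. Medians of S+P C5 (0.57) and S+P C4 (-0.11) against Sensitized were within 1 of those of all genes, which were -0.01 and -0.14.

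*Ifng* (ENSMUSG00000055170, chr10:118276951-118281797, plus strand of GRCm39) encodes IFN-γ, which activates macrophages and raises antigen presentation. Naive samples had 5.19, 4.90 and 0.0756 CPM, and Sensitized samples 129, 65.9, 158 and 34.0 CPM. The lowest Sensitized sample lay above the highest Naive one. The library left out because it appears in both Naive and S+P C4 held 537 counts of *Ifng*. This was 29.9 CPM of its total, against at most 8.02 in a Naive library used and 26.6 in the lowest Sensitized library. *Ifng* rose from 3.39 ± 2.87 CPM (SD, n = 3) in Naive to 97.0 ± 57.1 (SD, n = 4) in Sensitized TFGS, with a log2 fold change of 4.84 (SE 1.10, adjusted p = 0.0826 from edgeR). This call passed narrowly and was lost in 22 of the 30 fits that leave out a sample, the 3 without a Naive replicate and 3 of the 4 without a Sensitized replicate included. NK cells also make IFN-γ, and their markers *Ncr1* and *Klrb1c* summed to 53.3 to 126 CPM in Sensitized and at most 0.0823 in Naive samples. Of the 2, *Klrb1c* alone had an unadjusted p under 0.05 there by edgeR. The sum was 0.0287 to 1.11 CPM in N+P C1, 2.42 to 9.42 in N+P C5 and 0 to 62.2 in S+P C5. It was 0.794 to 90.6 CPM in S+P C4 and 3.55 to 328 in S+P C7. The 7 myeloid markers summed to 43.1 to 412 CPM in Sensitized against 1.59 to 56.9 in Naive samples. Their median log2 fold change was -0.24 (0.04 over all genes). *Itgax* alone of them had an unadjusted p under 0.05 and was called higher (adjusted p = 0.0566). The study's panels for flow cytometry held a dump channel, and its methods list antibodies to NK, macrophage, dendritic and erythroid cells. Whether the sort for RNA-Seq used such a gate is not stated in its text. The part of NK and myeloid cells in the *Ifng* call was not tested. The exact permutation test for *Ifng* gave p = 0.0286 (two-sided), the smallest p that 4 against 3 samples allow.

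After pregnancy of naive mice, N+P C1 samples had 26.2, 10.1 and 11.2 CPM of *Ifng*, and N+P C5 samples 155, 48.1 and 60.8 CPM. The 3 groups stood in the order Naive, N+P C1, N+P C5 without overlap. N+P C1 was above Naive with a log2 fold change of 2.22 (SE 1.00, adjusted p = 0.994), and N+P C5 above Naive with 4.70 (SE 1.11, adjusted p = 0.182), and neither was called. Between N+P C5 and N+P C1 the log2 fold change was 2.48 (SE 1.00, adjusted p = 0.917), and it was 2.42 (adjusted p = 0.0871), past both thresholds, when these 2 groups were fitted with the replicate number as block, which assumes that a number stands for 1 mouse in both subsets. Each of the 3 replicate numbers had more *Ifng* in C5 than in C1. 3 against 3 samples cannot give an exact permutation p below 0.1.

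In mice sensitized before pregnancy, *Ifng* levels overlapped those of the Sensitized samples. The C4 subset ranged from 9.13 to 132 CPM (median 77.7), C5 from 27.4 to 227 (median 161) and C7 from 33.4 to 151 (median 123). All 3 ranges overlapped that of Sensitized TFGS, and the log2 fold changes against it were -0.47 (SE 0.74), 0.58 (SE 0.76) and 0.15 (SE 0.78), with an adjusted p of 1 each from edgeR. Replicate 6 was the lowest of the C5 samples (27.4 CPM) and of the C7 samples (33.4 CPM), and in C4 (15.4 CPM) it was above replicate 3 only. By mean level the order was Naive (3.39), N+P C1 (15.8), S+P C4 (70.1), N+P C5 (88.0), Sensitized (97.0), S+P C7 (108) and S+P C5 (144 CPM), and the 5 highest groups overlapped each other. The log2 change with pregnancy in sensitized mice minus that in naive mice was -4.12 (SE 1.26, adjusted p = 0.643), which was not called. *Gm49751*, a gene model on the same strand, overlaps *Ifng*, so reads in the overlap may have been left uncounted.

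**Figure D2:**
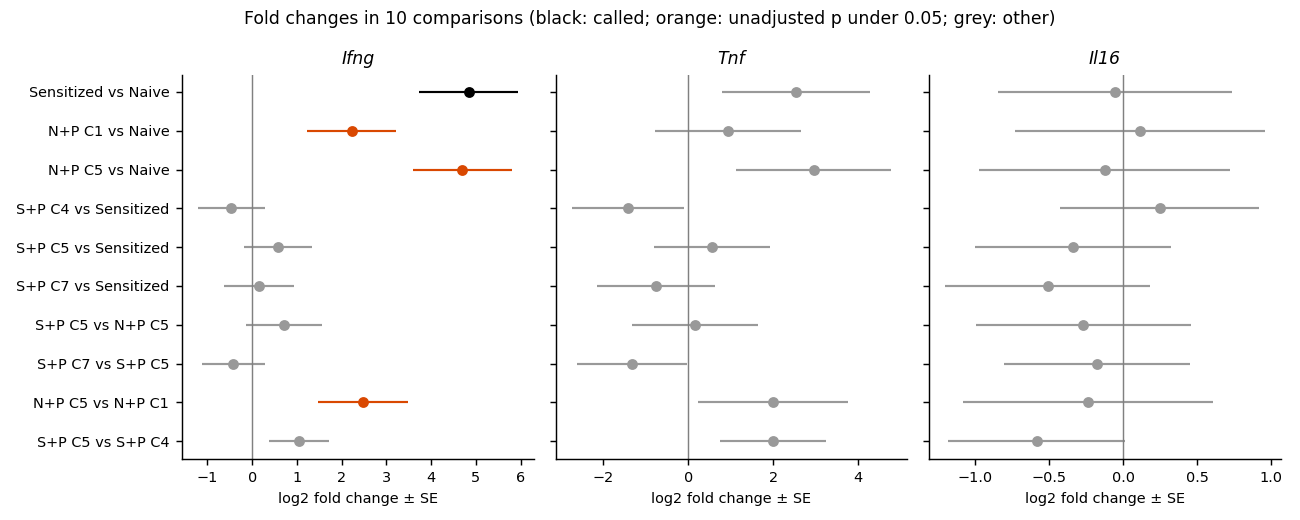
Log2 fold change with its standard error for *Ifng*, *Tnf* and *Il16* in the 10 comparisons of 2 groups (rows), from edgeR. For *Ifng* the 3 comparisons against Naive and N+P C5 against N+P C1 lie to the right of 0, from 2.22 to 4.84, while every *Il16* value lies between -0.58 and 0.25.

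*Tnf* (ENSMUSG00000024401, chr17:35418357-35420983, minus strand) encodes TNF, a cytokine of inflammation and cell death. Its levels were 2.22, 5.30 and 3.3998 CPM in Naive, 15.5, 5.02 and 0.488 in N+P C1, and 48.6, 29.1 and 6.70 in N+P C5 samples. Each N+P C5 sample was above each Naive sample, and the numbers of N+P C1 and N+P C5 kept the same rank in both subsets. The library left out because it appears in both Naive and S+P C4 held 461 counts of *Tnf*. This was 25.7 CPM of its total, against at most 8.79 in a Naive library used. Sensitized samples spread from 0.400 to 47.8 CPM (47.8, 0.400, 27.4 and 9.21), so that 1 of them lay below every Naive sample. After pregnancy of sensitized mice it ran from 0.0992 to 26.4 CPM in C4 (median 3.25), from 5.22 to 48.7 in C5 (median 33.7) and from 0 to 29.0 in C7 (median 14.8). All 6 replicates had more *Tnf* in S+P C5 than in S+P C4, and all 4 replicates shared with S+P C7 had less in S+P C7 than in S+P C5. These pairs and the tests that follow include S+P C4 replicates 2 and 3 (28 counts and 1 count of *Tnf*) and S+P C7 replicate 3 (1 count). Those are the samples with the fewest genes with a count. An exact permutation test between S+P C5 and S+P C4 that ignores the numbers gave p = 0.0216 (two-sided) for a difference of 2.42 in mean log2(CPM + 1), and 0.0974 for S+P C7 against S+P C5 (difference -2.10). edgeR did not call *Tnf* in any of the 11 comparisons (smallest adjusted p 0.569, S+P C5 against S+P C4).

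*Il2* (ENSMUSG00000027720, chr3:37174672-37180108, minus strand) encodes the T cell growth factor IL-2 and overlaps *Adad1* on the other strand, and the kit used does not mark strand. Naive samples had 0, 0.0994 and 0.302 CPM (0, 3 and 8 counts) and Sensitized samples 3.63, 11.1, 3.06 and 4.00 CPM (202, 221, 101 and 154 counts). The 2 groups did not overlap, with a log2 fold change of 5.30 (SE 2.53, adjusted p = 0.626) and an exact permutation p of 0.0286, the smallest possible. The library that was left out because it appears in both Naive and S+P C4 held 19 counts of *Il2*, more than any Naive library used. *Il2* was lower than in every Sensitized sample in all 6 S+P C4 samples, which had 0 to 2.85 CPM (median 0.187), and in all 5 S+P C7 samples, which had 0 to 2.37 CPM (median 0.195). Exact permutation tests gave p = 0.00952 and p = 0.0159 for these, while edgeR's adjusted p was 0.554 and 0.629. In S+P C5 the 6 samples had 0.129, 0.137, 20.4, 1.49, 0.865 and 0.0425 CPM, so 1 sample was above and 5 were below all Sensitized samples. N+P C5 samples had 8.94, 0.292 and 2.64 CPM and N+P C1 samples 0.151, 0.0348 and 0.0861, without overlap (log2 fold change 5.39, SE 2.57, adjusted p = 0.917).

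*Il10* (ENSMUSG00000016529, chr1:130947581-130952711, plus strand) encodes IL-10, the inhibitory cytokine of regulatory and chronically stimulated T cells. It had 0 counts in all 3 Naive and all 4 Sensitized samples. Among naive mice after pregnancy it was found in N+P C1 replicate 1 (3.67 CPM) and N+P C5 replicate 2 (13.1 CPM), and the other 4 samples had 0. S+P C5 samples had 9.23, 17.4, 16.2, 0.299, 28.4 and 0 CPM, S+P C7 samples 1.98, 0, 29.9, 28.9 and 18.7 CPM, and S+P C4 samples 0.289, 0, 0, 0.249, 3.90 and 0 CPM. By the bound of 3 counts, the mean was above that of Sensitized TFGS by at least 79.4-fold for C5, at least 106-fold for C7 and at least 4.93-fold for C4. edgeR called none of these (adjusted p = 0.276, 0.473 and 0.316), and 1 sample of S+P C5 and 1 of S+P C7 had 0 counts like the Sensitized samples. Without replicate 5, the mean of S+P C4 was under the floor. Exact permutation tests of mean log2(CPM + 1) gave p = 0.0333 for S+P C5 and p = 0.0873 for S+P C7 against Sensitized (0.0476 with a pseudocount of 0.1), and p = 0.0303 for S+P C5 against S+P C4. Means were 11.9 ± 10.9954 CPM (SD, n = 6) in S+P C5 and 0.739 ± 1.55 (SD, n = 6) in S+P C4, and 5 of 6 replicate numbers had more in S+P C5 while the other had 0 in both. In naive mice the bounds were at least 9.92-fold (N+P C1) and at least 35.4-fold (N+P C5) above Naive (adjusted p = 0.994 and 0.763), and each rested on its 1 sample. *Foxp3*, the factor of regulatory T cells, was detected in 5 samples, of which 4 held *Il10*: N+P C5 replicate 2 (4.32 CPM of *Foxp3*), S+P C5 replicate 5 (1.35), and S+P C7 replicates 4 (0.813) and 6 (1.12). The other, N+P C1 replicate 3, had 4.45 CPM of *Foxp3* and 0 counts of *Il10*. *Il10* was detected in 14 samples in all, among them S+P C5 replicates 1, 2 and 3, where *Foxp3* was not detected. *Cd4*, the other marker of these cells, was at 3 counts or fewer in every N+P C1, N+P C5 and S+P C5 sample, but not in every S+P C7 sample. N+P C5 replicate 2 also had 3.04 CPM of the B cell gene *Ms4a1*. The part of such cells in the *Il10* values was not tested.

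*Lif* (ENSMUSG00000034394, chr11:4207557-4222514, plus strand) encodes LIF, which is required in the uterus for implantation and acts through LIFR and gp130. It had 0 counts in all Naive, N+P C1 and Sensitized samples. S+P C5 was the group in which every sample had it, with 6.15, 2.06, 1.53, 4.63, 3.36 and 3.04 CPM (31 to 285 counts). N+P C5 had 2.12, 0 and 2.02 CPM, S+P C7 had 0, 0, 1.11, 4.94 and 0 CPM, and S+P C4 had 0.915 CPM in replicate 5 and 0 in the other 5 samples. S+P C5 did not overlap Sensitized or S+P C4 and was at least 23.1-fold higher than Sensitized (adjusted p = 0.276). The exact permutation test gave p = 0.00476 against Sensitized and p = 0.00216 against S+P C4, each the smallest that the numbers of samples allow, and p = 0.0411 for S+P C7 against S+P C5. The tests between S+P subsets ignore the replicate number and take the samples as independent. S+P C7 was at least 8.06-fold higher than Sensitized (adjusted p = 0.473, and at least 1.84-fold without replicate 5), S+P C4 at least 1.02-fold (adjusted p = 0.367), N+P C5 at least 11.2-fold higher than Naive (adjusted p = 0.763) and at least 13.2-fold higher than N+P C1 (adjusted p = 0.917). All of these levels are low, and the highest *Lif* count of any sample was 285.

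*Csf1* (ENSMUSG00000014599, chr3:107648364-107667806, minus strand) encodes M-CSF, the survival factor of macrophages. All 4 Sensitized samples, from 8 libraries, had 0 counts. Naive samples had 0, 9.48 and 0 CPM, N+P C1 samples 1.63, 2.65 and 0, and N+P C5 samples 17.7, 0.321 and 1.24 CPM. In the sensitized mice after pregnancy it was detected in 5 of 6 S+P C4 samples (0 to 26.6 CPM), 4 of 6 S+P C5 samples (0 to 25.8 CPM) and 4 of 5 S+P C7 samples (0 to 41.5 CPM). The means were at least 74.5-fold, 45.3-fold and 81.8-fold above Sensitized (adjusted p = 0.316, 0.276 and 0.473), and none was called. Without replicate 3 the bound for C5 was 19.97-fold, and without replicate 1-2 that for C7 was 33.2-fold. The exact permutation p was 0.0381 for the C4, 0.133 for the C5 and 0.127 for the C7 subset (0.0476 for C7 with a pseudocount of 0.1). Naive was at least 21.1-fold above Sensitized (adjusted p = 0.626), which rested on Naive replicate 2 alone. For the difference between sensitized and naive mice, *Csf1* had a log2 value of 9.78 (SE 3.90) with an adjusted p of 0.649 from edgeR. It ran from 0.08 to 12.8 when 1 sample was left out.

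*Csf2* (ENSMUSG00000018916, chr11:54138097-54140493, minus strand) encodes GM-CSF, the growth factor of granulocytes and macrophages made by activated T cells. It was at 0 in 25 of 30 samples. The others were S+P C7 replicate 3 with 813 counts (38.0 CPM), and Naive replicate 2, N+P C1 replicate 1, Sensitized replicate 3 and S+P C5 replicate 4 with 21, 11, 15 and 6 counts. The log2 fold change of S+P C7 over S+P C5 was 7.81 (SE 3.07, adjusted p = 0.279) and came from replicate 3 alone, since the other 4 S+P C7 samples had 0. That sample is the one with hemoglobin, *Ighm* and NK cell mRNA given above, and it had 4 counts of *Il16* and 1 count of *Tnf*. The part of those cells in its *Csf2* was not tested. *Il3*, the neighboring gene, had 0 counts in all 30 samples.

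*Il16* (ENSMUSG00000001741, chr7:83292016-83395370, minus strand) encodes the precursor of IL-16, a chemoattractant of CD4+ cells that T cells store ready-made, and overlaps *Stard5* and 2 other gene models. Its means were 244 ± 43.5 CPM (SD, n = 3) in Naive, 264 ± 21.9 (n = 3) in N+P C1, 224 ± 23.4 (n = 3) in N+P C5 and 234 ± 27.7 (n = 4) in Sensitized TFGS. For C4, C5 and C7 of sensitized mice after pregnancy they were 278 ± 158 (n = 6), 186 ± 80.3 (n = 6) and 165 ± 103 CPM (n = 5). The farthest values were in S+P C4 replicate 3 (586 CPM), S+P C5 replicate 3 (65.7 CPM) and S+P C7 replicate 3 (0.187 CPM, 4 counts), and the medians of the 3 groups were 201, 178 and 198 CPM. No comparison of *Il16* had an unadjusted p under 0.05. Log2 fold changes ran from -0.58 (SE 0.60, S+P C5 against S+P C4) to 0.25 (SE 0.67, S+P C4 against Sensitized).

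How well a sample's level can be known was visible in the 23 labelled replicates with 2 used technical libraries, each from 200 cells. They include S+P C7 replicate 1, whose library A was averaged with the nearly identical library of replicate 2 for the tests. *Il16* was detected in both libraries of all 23 pairs, with a median ratio of 1.16 between the libraries. *Ifng* was found in both of 21 pairs with a median ratio of 1.34, and *Tnf* in both of 18 pairs with a median ratio of 2.21. *Il2* was found in both libraries of 8 pairs, in 1 of the 2 in 10 pairs and in neither in 5. Where both held *Il2*, they differed by a median of 4.24-fold and by up to 91.0-fold. *Il10* was in both of 7 pairs and in 1 of 2 in 4 pairs, with a median ratio of 5.10 and a largest of 31.5. Both libraries held *Lif* in 2 pairs and 1 did in 7 pairs, as for S+P C5 replicate 1 with 0 and 285 counts and S+P C5 replicate 6 with 143 and 0. *Csf1* was in both of 5 pairs and in 1 of 2 in 11 pairs. *Csf2* was in 1 library of 4 pairs and in both of none.

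**Figure D3:**
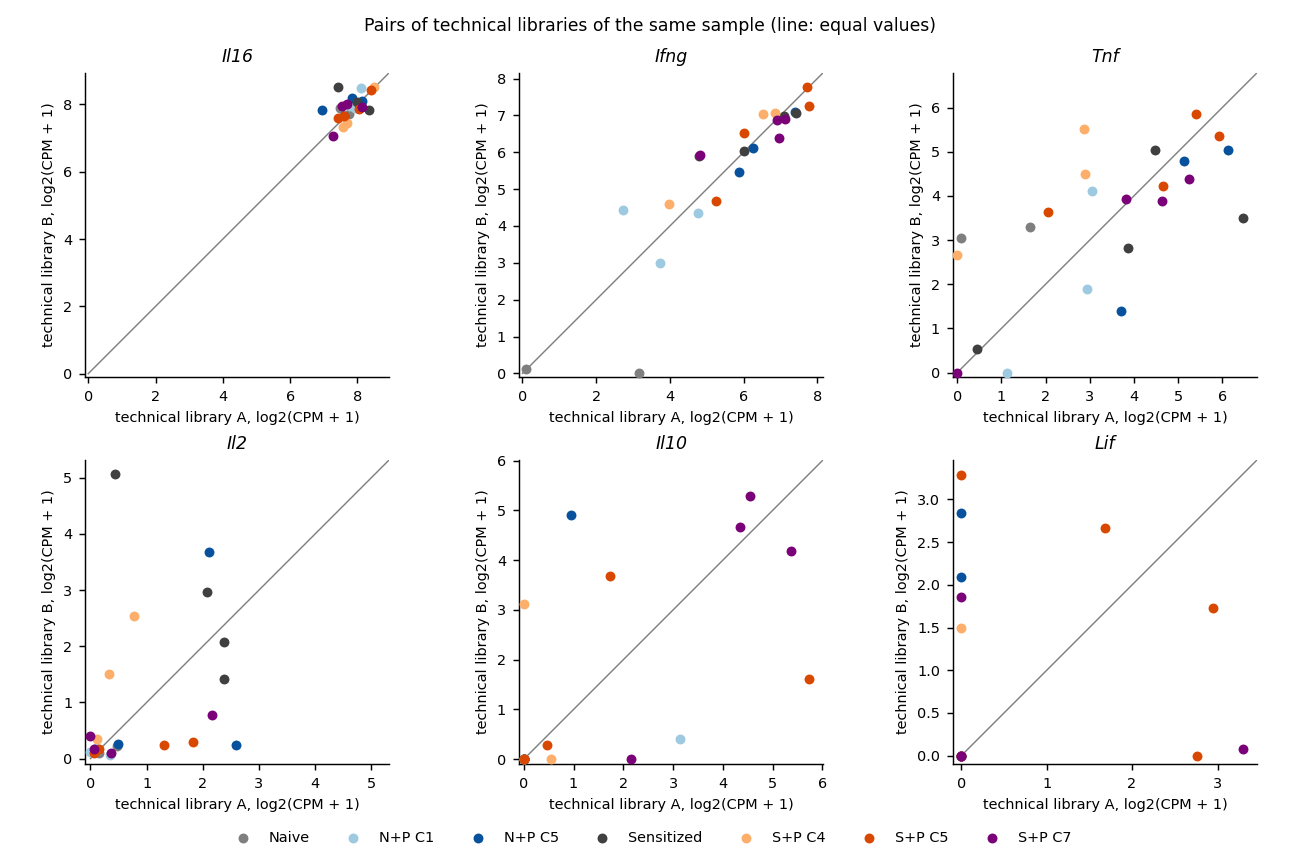
Level in technical library B against technical library A of the same labelled replicate, as log2(CPM + 1) of the library total, for 6 cytokines in 23 replicates, with a line of equal values. *Il16* and most *Ifng* pairs lie near the line, while many *Il2*, *Il10* and *Lif* pairs lie on an axis, detected in 1 of the 2 libraries.

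Subsets sorted after pregnancy carry a replicate number that recurs across the subsets, and samples of 1 number were compared on the assumption that they came from 1 mouse. In S+P C5 against S+P C4, *Ifng*, *Tnf* and *Lif* were higher in 6 of 6 numbers and *Il10* in 5 of 6, with 1 at 0 in both. *Il16* was lower in 5 of 6, and *Il2* and *Csf1* in 4 of 6. In N+P C5 against N+P C1, *Ifng*, *Tnf* and *Il2* were higher in 3 of 3 numbers and *Lif* in 2 of 3, with the other at 0 in both. For C7 against C5 of sensitized mice, 4 numbers could be compared. *Tnf* was lower in S+P C7 in 4 of 4, *Lif* and *Il16* in 3 of 4, and *Ifng* was higher in 2 and lower in 2, while *Il10* was higher in 3 of 4. Fitted with this number as block, edgeR called 0 cytokines in S+P C5 against S+P C4 and in S+P C7 against S+P C5.

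**Figure D4:**
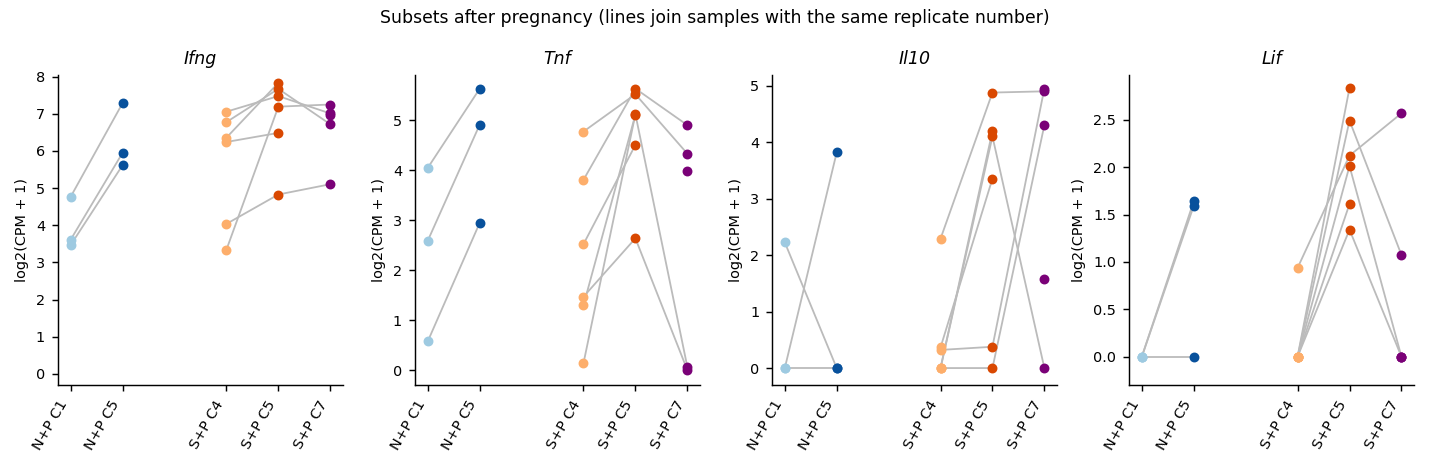
Levels of *Ifng*, *Tnf*, *Il10* and *Lif*, as log2(CPM + 1), in the subsets sorted after pregnancy from naive (N+P) and sensitized (S+P) mice, 1 point per sample, with grey lines between samples of the same number. *Ifng*, *Tnf* and *Lif* are higher in S+P C5 than in S+P C4 along all 6 lines.

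Of 15 receptor genes of these cytokines 14 were tested. *Il2rb*, the IL-2 and IL-15 receptor β chain, rose from 147 ± 24.4 CPM in Naive to 451 ± 89.5 in Sensitized TFGS (log2 fold change 1.62, SE 0.37, adjusted p = 0.0907) and was the 1 receptor called higher in that comparison. *Ifngr1*, the ligand-binding chain of the IFN-γ receptor, fell in S+P C5, to 81.6 ± 62.0 CPM from 590.4 ± 193 in Sensitized, and was the 1 receptor called lower there (adjusted p = 0.0118). It was also called lower than in S+P C4, which had 521 ± 253 CPM (log2 fold change -2.67, SE 0.46, adjusted p = 0.0191). *Il10ra*, the IL-10 receptor α chain, had 10.2 ± 4.43 CPM in Naive, 81.3 ± 10.007 in N+P C5, 99.1 ± 24.6 in Sensitized, and 247 ± 58.8 and 223 ± 44.9 in the C5 and C7 subsets of sensitized mice after pregnancy, and was not called in any comparison. The other 9 comparisons had 1 receptor called in all, the one between S+P C5 and S+P C4. The receptors' median log2 fold change was 0.63 in Sensitized against Naive (0.04 over all genes) and -0.14 in S+P C5 against Sensitized (-0.01 over all genes).

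Of 29 other cytokine genes 13 passed the filter, and 0 of them were called in the 11 comparisons by edgeR, with 0 to 5 of them at an unadjusted p under 0.05 in a comparison. *Il21*, the neighbor of *Il2* and a product of helper and chronically stimulated T cells, had 0 counts in all N+P C1 and Sensitized samples and at most 0.0331 CPM in Naive. It was found in all samples of the C5 subset, at 2.12 to 37.1 CPM after pregnancy of naive and 1.14 to 51.4 CPM of sensitized mice, in 3 of 5 S+P C7 samples (0 to 15.1 CPM) and in 1 of 6 S+P C4 samples (3.05 CPM). The smallest adjusted p of *Il21* was 0.248, for S+P C5 against Sensitized. *Spp1* (osteopontin) had at most 0.0823 CPM in Naive samples, 87.6 to 195 in N+P C5 and 0 to 476 in the C5 subset of sensitized mice. *Ltb*, beside *Tnf* on chromosome 17, was at 144 to 307 CPM on average in all 7 groups, and *Lta* at 6.70 to 24.4 CPM.

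Among 20 tested transcription factors of cytokine genes, *Bhlhe40*, which CD8 T cells use for sustained cytokine production, was the 1 gene called. It rose from 0.132 ± 0.114 CPM in Naive to 188 ± 93.6 in Sensitized (adjusted p = 0.00548) and to 239 ± 123 in N+P C5 (adjusted p = 0.0164). It was called for the difference of differences as well (adjusted p = 0.0531). *Maf*, a regulator of *Il10*, had 2.79 ± 1.57 CPM in Sensitized and 84.5 ± 57.3 in S+P C5, and *Nfatc1* 121 ± 21.9 and 324 ± 62.4, both with an unadjusted p under 0.05 and neither called. Of 9 genes of cytokine mRNA decay, 3 of shedding and cleavage and 10 targets of cytokine signals, 0 were called by edgeR in any comparison, with 0 to 2 of each list at an unadjusted p under 0.05. The IFN-γ and IL-2 targets *Socs1* and *Cish* had 28.0 ± 7.59 and 4.62 ± 1.51 CPM in Naive and 28.7 ± 5.92 and 30.1 ± 14.2 CPM in Sensitized TFGS. Neither had an unadjusted p under 0.05 in that comparison by edgeR, where *Pim1* was the 1 target of the 10 that did.

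For each cytokine the genes with the most similar pattern over the 30 samples were taken from 8250 tested genes with a mean of at least 10 CPM, by Pearson's r of log2(CPM + 1). The samples share groups and depth, so these values are a description. *Ifng* was most like *S100a6* (r = 0.857), *Itgb1* (r = 0.816) and *Il10ra* (r = 0.807), and *Tnf* most like *Galm* (r = 0.814), *Pim3* (r = 0.758) and *Gm37531* (r = 0.730). *Il10* was most like *Tox2* (r = 0.706), *Tnfsf4* (r = 0.701) and *Gm9208* (r = 0.664), and *Lif* most like *Sostdc1* (r = 0.871) and *Tnfsf4* (r = 0.819). *Il2* had *Tnfsf10* (r = 0.639), *Gm43065* (r = 0.606) and *Gnb1l* (r = 0.597), and *Csf1* had *Rap2a* (r = 0.627), *Plec* (r = 0.603) and *Myo1g* (r = 0.599). *Il16* followed *Eif3h* (r = 0.960), *Ebna1bp2* (r = 0.951) and *Cdc42se2* (r = 0.946). *Il16* was at 0.187 CPM in S+P C7 replicate 3 and at 65.7 CPM or more in every other sample, so that sample weighs heavily on these r. *Csf2* followed *Igkv3-5* (r = 0.950), *Cst3* (r = 0.915) and *Cadm1* (r = 0.913); with 25 samples at 0, this r rests on few samples. Among the cytokines themselves r was 0.557 for *Ifng* and *Tnf*, 0.464 for *Il10* and *Lif*, and -0.310 for *Ifng* and *Il16*. The last of these also includes S+P C7 replicate 3. Between *Csf2* and *Il16*, whose extreme values both lie in that sample, r was -0.923.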

How the data were processed

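RNA-Seq was done on sorted OVA:Kb-specific CD8+ T cells (SmartSeq2, 200 cells per library, 1 run). The authors trimmed reads with cutadapt 3.4, aligned them to GRCm39 with STAR 2.6.1b, kept uniquely mapped reads and counted these with featureCounts 2.0.1, and deposited raw counts per gene and library. The strand option and annotation release are not given in the sources used here. GENCODE M39, which held 54749 of the 55359 genes, gave names and positions. For 4 columns the last letter differs from the label.

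Technical libraries were summed per replicate. The 8 cytokines and all gene lists were chosen with earlier results of these data known. Tests used edgeR 4.0.16 in R 4.3.3 (TMM, filterByExpr at 10 counts, robust, Benjamini-Hochberg over 19659 genes). Exact permutation tests (two-sided, 77, unadjusted) compared mean log2(CPM + 1). They took samples as independent, also between subsets that share replicate numbers. Fold changes were given for cytokines with an unadjusted p under 0.05 and for others where levels are discussed. From the lists, called genes or those with the smallest p were named. *Il10ra*, *Maf*, *Nfatc1*, *Socs1*, *Cish*, *Ltb*, *Lta* and *Il3* were chosen after their values were seen. Labels do not name the mouse of each Naive or Sensitized sample, so p-values measure the spread between these samples.

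The labels give a replicate number and name no mouse. The study gives a smaller n per group than the 6 replicate numbers of S+P C4 and S+P C5, with technical replicates of each biological sample. These numbers may therefore not stand for 6 mice. Subsets with the same number were assumed to come from 1 mouse because the column names share it, and not every pair correlated above 0.1. They deviated together from their group means (mean r 0.178 over 3 N+P pairs, lowest 0.0826, and 0.187 over 14 S+P pairs, lowest 0.0792), against -0.089 and 0 for different numbers. Amplified reads without molecular identifiers are not independent molecules. Scripts were tested on simulated data. Alternatives were DESeq2 1.42.0, RLE scaling, no filter, only the groups compared, separate technical libraries, all 56 libraries, other thresholds, blocks for the replicate number, leaving out samples with under 9000 detected genes or each sample in turn, and a pseudocount of 0.1. ATAC-Seq was not analysed here, and some items (1 marker, 1 gene of similar pattern, the promoter of 1 cytokine) are not reported here.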

Additional observations from a re-analysis of the deposited data

Results flagged for a closer look

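Of 28 groups of 4 to 6 samples, 11 held a sample whose gap to its nearest neighbor, over the range of the group, exceeded Dixon's critical value, where chance flags about 1 in 20 groups of normally distributed values. That rate does not hold for the 4 cases below with 1 value above 0 among zeros. *Il2* had 4 of them, with 11.1 CPM in Sensitized replicate 2 (next 4.00), 2.85 in S+P C4 replicate 5 (next 0.941), 20.4 in S+P C5 replicate 3 (next 1.49) and 2.37 in S+P C7 replicate 6 (next 0.210). The 2 technical libraries of Sensitized replicate 2 held 5 and 216 counts of *Il2*. *Il10* had 3.90 CPM in S+P C4 replicate 5 (next 0.289). *Lif* had 0.915 CPM in the same sample (next 0) and 4.94 in S+P C7 replicate 5 (next 1.11). *Csf2* had 0.455 CPM in Sensitized replicate 3, 0.179 in S+P C5 replicate 4 and 38.0 in S+P C7 replicate 3, with all other samples of these groups at 0. *Il16* had 586 CPM in S+P C4 replicate 3 (next 309), a sample with 7436 detected genes. No explanation of these values was tested.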

How the results depend on the processing

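*Ifng* in Sensitized against Naive, the 1 call, was lost (0 cytokines called) at an FDR of 0.05, with no filter, with only the groups compared and with all 56 libraries. Leaving out 1 sample gave 0 to 1 calls, 1 without Sensitized replicate 4, without replicates 2, 3 or 6 of S+P C4, 1 or 6 of C5, or 3 or 6 of C7, and 0 without any of the others. Over 38 alternatives its adjusted p ran from 4.77e-06 to 0.473 and its log2 fold change from 3.78 to 5.28. DESeq2 called 3 cytokines in that comparison, 1 (N+P C1) and 2 (N+P C5) relative to Naive TFGS, 2, 3 and 2 for C4, C5 and C7 of sensitized mice after pregnancy against Sensitized, 1 in N+P C5 against N+P C1 and 2 for the difference of differences, where it called 3.33% to 5.16% of all genes. Separate technical libraries, which are not independent samples, gave 2 in Sensitized and 1 in N+P C5 against Naive, 2, 3 and 4 for C4, C5 and C7 against Sensitized, and 1 for the difference of differences, where 0.639% to 7.02% of all genes were called. N+P C5 against Naive had 1 call without the samples under 9000 detected genes and 0 to 1 when a sample was left out, the 1 (*Ifng*) without S+P C4 replicate 3. Only the groups compared gave 1 (*Lif*) for C5 against Sensitized. The replicate block within the same mice gave 1 call (*Ifng*) in N+P C5 against N+P C1, and a block changed no other count of calls. The cause of these changes was not tested. Among the 23 tests with an unadjusted p under 0.05, no log2 fold change reversed. That of *Csf1* for the difference of differences fell from 9.78 to 0.08 when 1 sample was left out. With a pseudocount of 0.1, the *Csf1* difference in mean log2 CPM turned from -0.04 to 0.77 in N+P C1 against Naive and from 0.01 to -0.48 in S+P C5 against N+P C5, with an exact permutation p of 0.845 or more. In 4 cases leaving out a sample left no counts in either group: *Csf1* without Naive replicate 2, *Il10* without N+P C1 replicate 1 or N+P C5 replicate 2, and *Lif* without S+P C4 replicate 5. Levels under 3 counts (0.0539 to 0.298 CPM) were not detectable at this depth.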
